A study of Drosophila melanogaster with 20 samples.

Results

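Surface glia were compared with all glia of the adult Drosophila melanogaster brain on single-channel Affymetrix expression arrays. The comparison used 10 of the 20 arrays of the series, chosen by their cell type labels alone: 5 arrays of cells sorted by GFP from the line labelled 9.137-GFP (surface glia) and 5 arrays of cells sorted from the line labelled REPO-GFP (all glia). The labels name no other allele or driver for either line. Surface glia were freed from the brains by 5 min of shaking at 37 °C and all glia by 20 min, both with collagenase at 2 mg/mL and 20 units of DNase. Each replicate came from 10 to 15 brains of both sexes, from separate growth bottles processed on different days, and all flies were kept at 16 °C or room temperature. Line and dissociation time differed between the groups in every replicate, so neither can be told apart from cell type. The other 10 arrays, 5 of ELAV-GFP neurons and 5 of wild-type Canton S whole brains, are used below only as levels set beside the members of this comparison. The neurons were freed by 20 min of shaking at 1000 rpm and 37 °C. Whole brain replicates held 5 brains each, and no dissociation is listed for them. Levels of these groups therefore also differ in dissociation, which cannot be told apart from cell type.

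Surface glia wrap the insect brain in an outer perineurial layer and an inner subperineurial layer, and the inner layer seals the brain from the blood with septate junctions. They form the fly's blood-brain barrier: they take up sugars, lipids and amino acids for the brain, pump foreign compounds out, and lie on a basement membrane rich in collagen IV. The transcription factor Repo is made by nearly all glia, so a sort on it is meant to take surface glia together with cortex, ensheathing and astrocyte-like glia. The all glia arrays held little of the astrocyte-like marker Gat and, on most arrays, of alrm, but not of Eaat2, as the levels below show. In bulk samples such as these, fewer cells of a type and less RNA per cell cannot be told apart.

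Values are the deposited log2 values of each probe set, so a difference of 1 is a doubling of signal. Probe sets were called where limma, fitted to these 10 arrays, gave a Benjamini-Hochberg adjusted p under 0.05 over all 18769 probe sets together with a log2 difference of at least 1. A level is described as within the negative controls where no array of the group exceeded the 95th percentile of its own 44 negative control probe sets. A difference from such a level is given as a lower bound. Where 3 or fewer arrays of a group exceeded the controls, the fitted difference is given with their number. A gene is represented by the probe set with 1 gene symbol and the highest mean over the 20 arrays.

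The arrays did not vary evenly. All glia 4 correlated with the other arrays of its group at a mean of 0.772, while the other 4 all glia arrays correlated with one another at 0.921 to 0.937. The surface glia arrays correlated with one another at 0.781 to 0.896, and surface glia 4 was the lowest of them at a mean of 0.785. Surface glia 1, 2 and 5 correlated more closely with the 4 other all glia arrays (0.913, 0.877 and 0.829) than with their own group (0.843, 0.840 and 0.821). The share of probe sets above the negative controls was 48.7% on surface glia 4 and 50.5% on all glia 4, against 59.1% to 68.9% on the other surface glia arrays and 61.5% to 68.2% on the other all glia arrays. Exact two-sided permutation tests of 10 array measures (quartiles, negative controls and 3′ minus 5′ differences of control transcripts) gave p from 0.159 to 0.992, all 0.992 after adjustment over the 10, where 0.00794 is the smallest p that 5 against 5 arrays allow.

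The markers of the labelled cell types were read next. The ABC transporter gene Mdr65 had 12.67, 12.50, 12.97, 12.54 and 12.01 on the surface glia arrays, against 12.03, 10.88, 10.50, 10.38 and 11.05 on the all glia arrays. The collagen IV gene Col4a1 had 13.30 to 14.02 in surface glia and 11.82 to 13.12 in all glia, without overlap. Indy, which encodes a citrate transporter, had 12.50, 12.35, 12.97, 12.16 and 12.28 in surface glia, against 11.39, 9.18, 10.31, 5.43 and 10.50 in all glia. None of these 3 differences passed the adjusted threshold (adjusted p of 0.105, 0.132 and 0.239). The G protein coupled receptor gene moody, which the barrier needs to form, had 10.87, 10.47, 11.41, 11.80 and 11.27 in surface glia, against 11.34, 9.28, 10.27, 5.27 and 9.66 in all glia. The moody values overlapped, since all glia 1 lay above 3 of the 5 surface glia arrays. Gliotactin (Gli), a septate junction gene, was within the negative controls in both groups, with 2.60 to 3.77 in surface glia and 2.30 to 2.94 in all glia. Of the same marker set, vkg had 13.10 to 14.03 in surface glia and 11.77 to 13.10 in all glia. Two-way overlap was wider for loco (8.71 to 11.71 against 9.00 to 10.12) and Oatp58Dc (5.05 to 6.37 against 4.96 to 6.29).

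**Figure D1:**
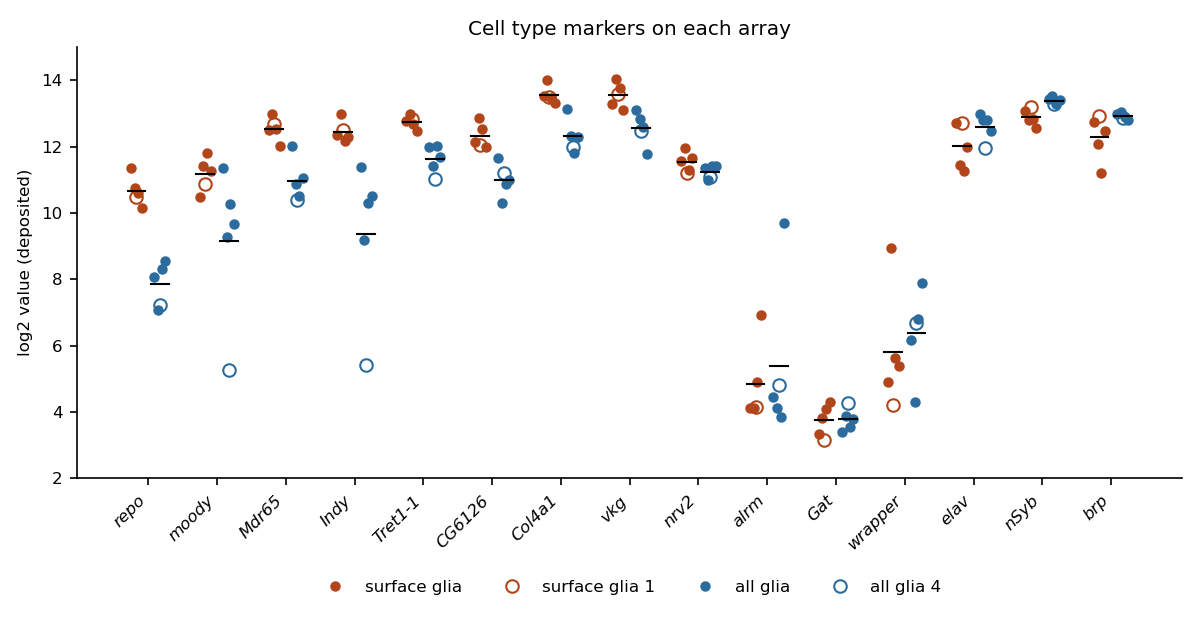
Deposited log2 values (y axis) of 15 marker genes (x axis) on each array, with surface glia left and all glia right of each gene, means as black lines, and surface glia 1 and all glia 4 as open circles. Of the barrier markers shown, Indy, Tret1-1, CG6126 and Col4a1 lie higher in surface glia without overlap. Mdr65, vkg and moody have higher means there, but their arrays overlap or touch. All glia 4 lies far below its group for moody (5.27) and Indy (5.43), and the neuronal gene nSyb stands above 12 on every array of both groups.

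Both sorts also carried neuronal transcripts. The neuronal gene nSyb had 13.20, 13.08, 12.81, 12.83 and 12.56 in surface glia, against 13.44, 13.53, 13.29, 13.27 and 13.39 in all glia, 13.32 to 13.57 in neurons and 13.46 to 13.53 in whole brain. The RNA-binding protein gene elav had 11.25 to 12.72 in surface glia and 11.95 to 12.99 in all glia. Over the 27 measured pan-neuronal genes the mean level per array was 9.86 to 11.73 in surface glia, 11.28 to 12.01 in all glia and 11.98 to 12.21 in neurons. Surface glia 1 and surface glia 2 had the highest such means of their group, 11.73 and 11.64. Of the astrocyte-like and ensheathing glia markers, the GABA transporter gene Gat was within the negative controls in both sorts. It had 3.16 to 4.29 in surface glia, 3.39 to 4.28 in all glia and 10.99 to 12.02 in whole brain. The astrocyte marker alrm had 4.11 to 6.92 in surface glia and 3.84 to 9.70 in all glia, against 11.23 to 11.87 in whole brain, and was above the controls on 1 of 5 arrays of each sort. Of the same marker set, e and rumpel had 4.01 to 6.33 and 4.29 to 6.08 in all glia, against 9.54 to 9.95 and 9.50 to 10.13 in whole brain. Eaat2 went the other way, with 10.02 to 10.79 in all glia and 10.90 to 11.14 in whole brain. Neurons had Eaat2 at 10.76 to 10.87, and surface glia at 3.20 to 10.60. The part of neuronal RNA, or of any missing astrocyte-like or ensheathing glia RNA, in the differences below was not tested.

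In the comparison as a whole, 22 of 18769 probe sets were called higher in surface glia (0.117%) and 6 were called lower (0.032%), with 1786 at an unadjusted p under 0.05 (9.52%). Counted by gene, each at its representative probe set, 20 of 11982 were called higher (0.167%) and 4 lower (0.0334%). The median difference of all genes was 0.07. At all 28 called probe sets the 5 surface glia and 5 all glia arrays did not overlap, whereas 241 genes lay without overlap higher (2.01%) and 115 lower (0.96%) whatever their p. Few of the calls stood without each array in turn: 5 of the 28 were called in all 10 fits that left out 1 array, and 23 were lost in at least 1. The number called was 5 without all glia 2, 12 without all glia 3, 9 without all glia 5, 13 without surface glia 2 and 5 without surface glia 3. It was 54 without all glia 4, 59 without surface glia 1, and 22 to 26 without each of the others.

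**Figure D2:**
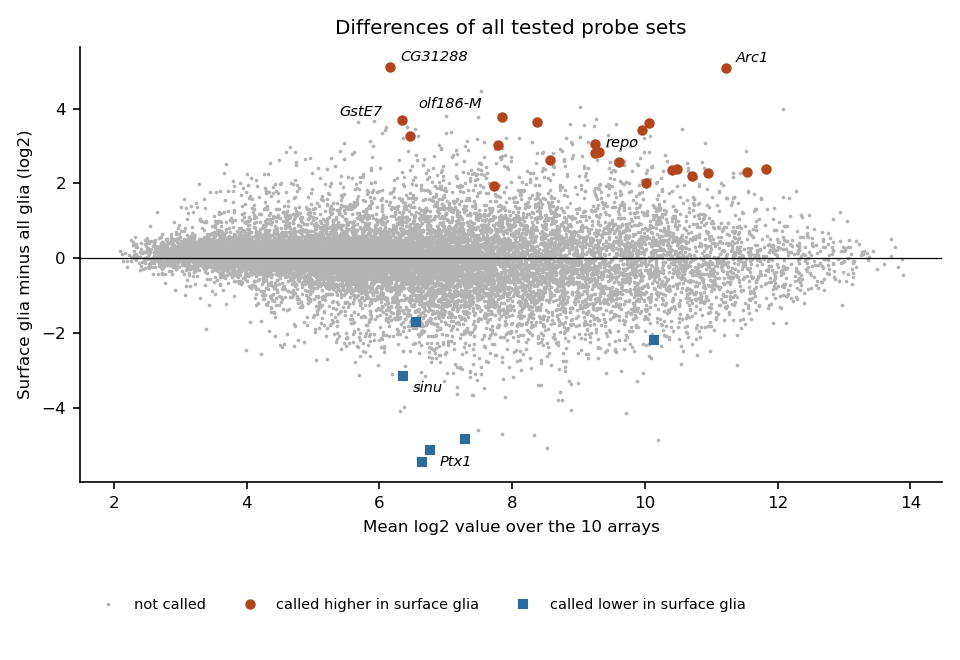
Difference between surface glia and all glia (y axis, log2) against the mean log2 value over the 10 arrays (x axis) for all tested probe sets, with the 22 called higher as circles and the 6 called lower as squares. Many uncalled probe sets (grey) show differences as large as the called ones, and the called probe sets lie on both sides of 0. Points of probe sets within the negative controls in 1 group, such as CG31288 and 1634666_at, are plotted at their fitted difference, for which only the bound given in the text holds.

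CG31288, a member of the ecdysteroid kinase-like family, had 7.94, 8.23, 10.71, 6.35 and 10.38 in surface glia, against 4.14, 3.25, 3.60, 3.60 and 3.44 in all glia. The gene was above the negative controls on 5 of 5 surface glia arrays and on 0 of 5 all glia arrays, and it was as low in neurons (2.70 to 3.15) and in whole brain (2.22 to 2.94). It rose by at least 3.57, or 11.9-fold (adjusted p = 0.0313). Surface glia 4 was the lowest array of its group and still lay 2.21 above the highest all glia array.

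Arc1, the gene of a Gag-like protein that forms capsids and carries its own RNA between cells, was measured by a pair of probe sets. The one that was called had 13.60, 14.04, 13.64, 13.92 and 13.57 in surface glia, against 7.27, 8.12, 10.09, 8.08 and 9.86 in all glia. The lowest surface glia array lay 3.48 above the highest all glia array, and the difference was 5.07 (SE 0.51, adjusted p = 0.00546). The brighter probe set, which represents the gene, had 13.95 to 14.24 in surface glia and 10.70, 10.83, 10.79, 6.31 and 11.78 in all glia. Its difference of 3.98 (SE 0.84) had an adjusted p of 0.0903 with all arrays and was 3.06 (adjusted p = 0.00756) without all glia 4 and surface glia 1. Whole brain had 12.82 to 13.46 at the called probe set and neurons 6.88 to 9.53. All glia overlapped the neurons there, and surface glia lay above whole brain. The related gene Arc2 had 4.71 to 5.90 in surface glia and 4.55 to 6.51 in all glia.

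CG31288, Arc1, olf186-M, svp and Ptx1 were picked for reading with earlier results of these data known, so their differences are no independent test. olf186-M had 7.98, 11.02, 9.47, 10.13 and 10.10 in surface glia, against 6.42, 6.20, 6.50, 5.74 and 4.92 in all glia. The lowest surface glia array lay 1.48 above the highest all glia array. The difference was 3.78 (SE 0.53, adjusted p = 0.0313), with 3 of 5 all glia arrays above the controls, and neurons (3.38 to 3.83) were lower than either sort, while whole brain (4.07 to 4.99) overlapped the lowest all glia array. svp, which encodes an orphan nuclear receptor, was measured by 3 probe sets, and none was called. The representative one had 8.59, 9.63, 10.77, 8.87 and 8.52 in surface glia, against 8.29, 7.70, 8.88, 7.70 and 7.44 in all glia, with overlap and an adjusted p of 0.38. Another had 8.15, 10.17, 9.97, 10.90 and 7.67 in surface glia, against 7.01, 4.58, 7.36, 4.13 and 4.92 in all glia, without overlap, and its difference of 3.77 (SE 0.79), with 2 of 5 all glia arrays above the controls, had an adjusted p of 0.0903. The third was within the negative controls in both groups.

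**Figure D3:**
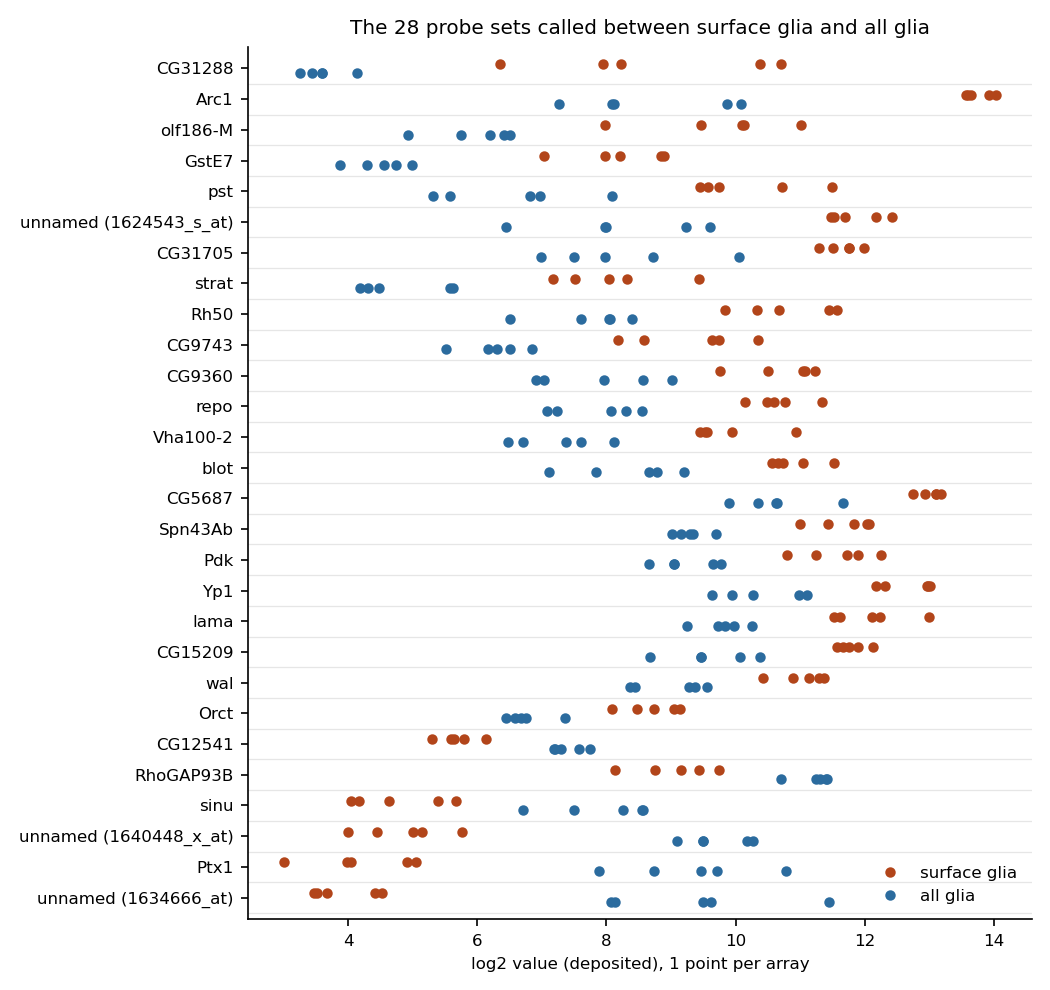
Deposited log2 values (x axis) on each of the 5 surface glia arrays (upper points of a row) and 5 all glia arrays (lower points) for the 28 called probe sets, ordered by difference. In every row the groups are apart, with gaps above 3 at Arc1 (3.48) and at the unnamed probe sets 1640448_x_at (3.34) and 1634666_at (3.55).

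Several called rises were of genes that encode transporters, 2 of them (blot and Orct) members of the transporter lists described below. blot, which encodes a membrane carrier of the neurotransmitter and amino acid symporter family, had 10.73, 10.65, 11.05, 11.52 and 10.57 in surface glia, against 9.20, 7.11, 8.79, 7.84 and 8.66 in all glia (difference 2.58, SE 0.41, adjusted p = 0.0361). Orct, an organic cation transporter gene, had 8.09, 9.14, 8.73, 8.47 and 9.04 in surface glia, against 6.75, 6.58, 6.68, 6.45 and 7.36 in all glia (difference 1.93, SE 0.30, adjusted p = 0.0314). Rh50, of the ammonium transporter family, had 10.67, 9.84, 11.57, 11.45 and 10.33 in surface glia, against 7.60, 8.05, 8.04, 6.51 and 8.40 in all glia (difference 3.05, SE 0.44, adjusted p = 0.0313). In each of the 3 the groups stood apart. Sorted neurons were lower than both sorts for blot (2.76 to 5.29) and Orct (4.95 to 5.48), and overlapped only all glia 4 for Rh50 (5.81 to 6.61). Vha100-2, a subunit gene of the proton pump V-ATPase, had 9.45 to 10.94 in surface glia and 6.47 to 8.11 in all glia, and rose by 2.63 (SE 0.40). Its relative Vha100-1 had 10.53 to 11.38 in surface glia and 10.96 to 11.38 in all glia. CG5687 had 12.75 to 13.18 in surface glia and 9.90 to 11.66 in all glia, against 4.04 to 4.58 in neurons, and it rose by 2.38 (SE 0.33, adjusted p = 0.0313).

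The glutathione S-transferase gene GstE7 had 7.04, 8.21, 8.84, 8.89 and 7.97 in surface glia, against 3.88, 4.29, 4.55, 4.99 and 4.74 in all glia, where it was within the negative controls. It rose by at least 3.04, or 8.22-fold (adjusted p = 0.00546), and was called in all 10 fits that left out 1 array. wal, which encodes a subunit of the electron transfer flavoprotein of fatty acid oxidation, had 10.89, 10.43, 11.37, 11.30 and 11.13 in surface glia, against 9.55, 9.28, 8.45, 8.37 and 9.37 in all glia. Its rise of 2.02 (SE 0.33, adjusted p = 0.0446) was called in only 1 of those 10 fits. Pdk, the kinase that turns pyruvate dehydrogenase off, had 11.73, 10.80, 11.90, 12.25 and 11.25 in surface glia, against 9.77, 9.04, 9.04, 8.66 and 9.65 in all glia, and rose by 2.35 (SE 0.35, adjusted p = 0.0313). A second Pdk probe set did not overlap either, at 2.51 (adjusted p = 0.0726). CG9743, a fatty acid desaturase family gene, had 8.18 to 10.34 in surface glia and 5.51 to 6.85 in all glia, and rose by 3.03 (SE 0.44). Of these 4, GstE7 and wal belong to gene lists described below, and Pdk and CG9743 to none.

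The glial regulator repo, whose name the all glia line carries, was itself higher in surface glia. It had 10.48, 11.34, 10.76, 10.60 and 10.14 in surface glia, against 8.07, 7.08, 8.30, 7.23 and 8.55 in all glia, 9.63 to 10.45 in whole brain and 4.30 to 6.63 in neurons. The surface glia values lay 1.59 above the highest all glia value, and the difference was 2.82 (SE 0.36, adjusted p = 0.0207), called in 8 of the 10 fits that left out 1 array. Secreted and storage proteins were called too. The serpin gene Spn43Ab had 11.00, 12.04, 12.06, 11.43 and 11.84 in surface glia, against 9.15, 9.34, 9.01, 9.30 and 9.70 in all glia, and rose by 2.37 (SE 0.29, adjusted p = 0.0129). The yolk protein gene Yp1, made by the fat body and by ovarian cells of females, had 12.32, 12.98, 12.97, 12.18 and 13.01 in surface glia, against 9.63, 9.95, 11.10, 10.99 and 10.27 in all glia, and rose by 2.30 (SE 0.35, adjusted p = 0.0314). Neurons held Yp1 at 6.85 to 7.56 and whole brain at 7.87 to 9.92. Surface glia lay above whole brain, and all glia overlapped it.

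The other called rises were of genes with roles elsewhere or with none given here. They were pst, named for resistance to viruses (difference 3.64, SE 0.58), CG31705 (3.42, SE 0.51), strat, a regulator of secretory vesicle traffic (3.27, SE 0.47), CG9360 (2.83, SE 0.47), lama (2.29, SE 0.33), CG15209 (2.19, SE 0.33) and an unnamed probe set, 1624543_s_at (3.61, SE 0.54). Their adjusted p ran from 0.0313 to 0.0490. lama, named for lamina ancestor cells, had 11.53 to 12.99 in surface glia, against 9.25 to 10.26 in all glia, 3.74 to 5.32 in neurons and 6.56 to 7.33 in whole brain. CG31705 had 11.29 to 11.99 in surface glia and 6.98 to 10.06 in all glia, with 11.72 to 12.14 in whole brain. strat lay at 7.17 to 9.44 in surface glia and 4.18 to 5.63 in all glia, with 2 of 5 all glia arrays above the controls, and neurons, at 6.07 to 7.49, lay above all glia.

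The falls were fewer. The homeobox gene Ptx1 had 5.05, 3.0, 4.04, 3.98 and 4.91 in surface glia, against 7.88, 8.73, 9.46, 10.78 and 9.71 in all glia, and it fell by 5.12 on the log2 scale (SE 0.56, adjusted p = 0.00546). It was above the negative controls on 1 of 5 surface glia arrays and on 5 of 5 all glia arrays, and neurons had 8.03 to 8.74. A second Ptx1 probe set lay low in both groups, with 4.50 to 5.69 in surface glia and 4.76 to 6.54 in all glia. The unnamed probe set 1634666_at had 4.42, 3.67, 3.51, 4.52 and 3.47 in surface glia, against 9.62, 9.50, 8.14, 11.45 and 8.07 in all glia. Being within the negative controls in surface glia, it was lower there by at least 4.13, or 17.5-fold (adjusted p = 0.00546). The unnamed 1640448_x_at had 4.0, 5.00, 4.45, 5.76 and 5.15 in surface glia, against 10.18, 10.27, 9.49, 9.50 and 9.10 in all glia, and its adjusted p of 0.000915 was the smallest of all. These 3, with the called Arc1 probe set and GstE7, were the 5 calls that stood in all 10 fits that left out 1 array.

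The claudin gene sinu, a part of septate junctions, had 5.67, 5.39, 4.05, 4.16 and 4.63 in surface glia, against 6.70, 8.57, 8.55, 8.26 and 7.49 in all glia, and fell by 3.13 on the log2 scale (SE 0.46, adjusted p = 0.0313). Only 2 of 5 surface glia arrays exceeded the controls for sinu, while neurons had 9.01 to 9.42. RhoGAP93B, which encodes a GTPase-activating protein, had 9.43, 9.16, 8.75, 8.13 and 9.75 in surface glia, against 11.40, 11.41, 11.25, 11.31 and 10.71 in all glia (difference −2.17, SE 0.33, adjusted p = 0.0314). CG12541 had 5.30 to 6.13 in surface glia and 7.18 to 7.75 in all glia, and fell by 1.71 (SE 0.26). Neurons lay above surface glia for sinu and RhoGAP93B and overlapped it for CG12541 (5.80 to 7.00). Genes that lay lower without overlap at adjusted p between 0.0585 and 0.0814 included flip (lower by at least 1.34), heca (−1.85), Fcp1 (−3.64), CG7326 (−2.02), the peptide hormone gene CCHa2 (−3.44), CG34353 (−2.43), su(f) (−1.89), the potassium channel gene Elk (−2.13), CG14408 (−1.66), aln (−4.12) and PolH (lower by at least 2.03). In surface glia CCHa2 was above the controls on 1 of 5 arrays, surface glia 1, Fcp1 on 2 of 5, su(f) on 3 of 5, and Elk and CG34353 on 4 of 5. aln had 9.10, 10.48, 5.57, 6.23 and 6.90 in surface glia, against 11.45, 11.83, 12.02, 12.16 and 11.43 in all glia, so surface glia were both lower and more scattered.

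Without all glia 4 and surface glia 1, 34 probe sets were called higher (0.181%) and 84 lower (0.448%), and 23 of the 28 calls were kept. The median difference of all probe sets was then 0.26, against 0.05 with all arrays. Genes called there and not with all 10 arrays included heca at −2.08 (adjusted p = 0.0279), CG7326 at −2.43 (adjusted p = 0.0259), CCHa2 (adjusted p = 0.0259), PolH (adjusted p = 0.0381) and santa-maria, a scavenger receptor gene of carotenoid uptake, at 4.41 (adjusted p = 0.0315), with 2 of 5 all glia arrays above the controls. The dopamine receptor gene Dop2R had 9.16, 5.18, 3.26, 3.43 and 4.94 in surface glia, against 10.84, 10.76, 9.62, 8.15 and 9.51 in all glia. Surface glia 1 alone reached the all glia range for Dop2R, which was above the controls on 2 of 5 surface glia arrays, and the difference was −4.58 (adjusted p = 0.104) with it and all glia 4, and −5.98 (adjusted p = 0.00756) without both. The netrin receptor gene unc-5 was at −3.07 (adjusted p = 0.524) with all arrays and −5.24 (adjusted p = 0.0148) without both, and was above the controls on 3 of 5 surface glia arrays and 4 of 5 all glia arrays. Surface glia 4, not surface glia 1, correlated least with its group. Without all glia 4 and surface glia 4, 12 probe sets were called higher and 7 lower, and only 7 of the 28 calls were kept.

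Gene lists were written from general knowledge, but with earlier results of these data known, so they are no independent test. They are described by counts and medians, beside 2.01% of all genes higher and 0.96% lower without overlap and a median of 0.07. Some genes stand in several lists, so the list counts are not separate observations. Examples are Col4a1 (barrier, basement membrane and hemocyte lists) and CG3168 and CG6126 (barrier and organic ion transporter lists). Of the 2996 genes with the highest mean level 5.87% were higher and 2.17% lower without overlap, against 0.467% and 0.0668% of the 2996 with the lowest. Of 19 surface glia and barrier genes, 0 were called, 8 were higher without overlap (42.1%) and 17 had a positive difference, with a median of 1.31. Those 8 were pippin, Indy, CG3168, Nrg, Lsd-2, CG6126, Col4a1 and Tret1-1. pippin, a carbohydrate transporter gene, had 12.27, 12.39, 12.39, 12.41 and 11.99 in surface glia, against 10.11, 7.32, 8.83, 7.11 and 10.77 in all glia (difference 3.46, SE 0.65, adjusted p = 0.0726). The trehalose transporter gene Tret1-1 had 12.46 to 12.98 in surface glia and 11.01 to 12.01 in all glia (1.12, adjusted p = 0.136). The mean level of the list per array was 10.22 to 10.83 in surface glia and 7.73 to 9.82 in all glia, where all glia 4 was the lowest. Without all glia 4 and surface glia 1 the median was 1.03.

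**Figure D4:**
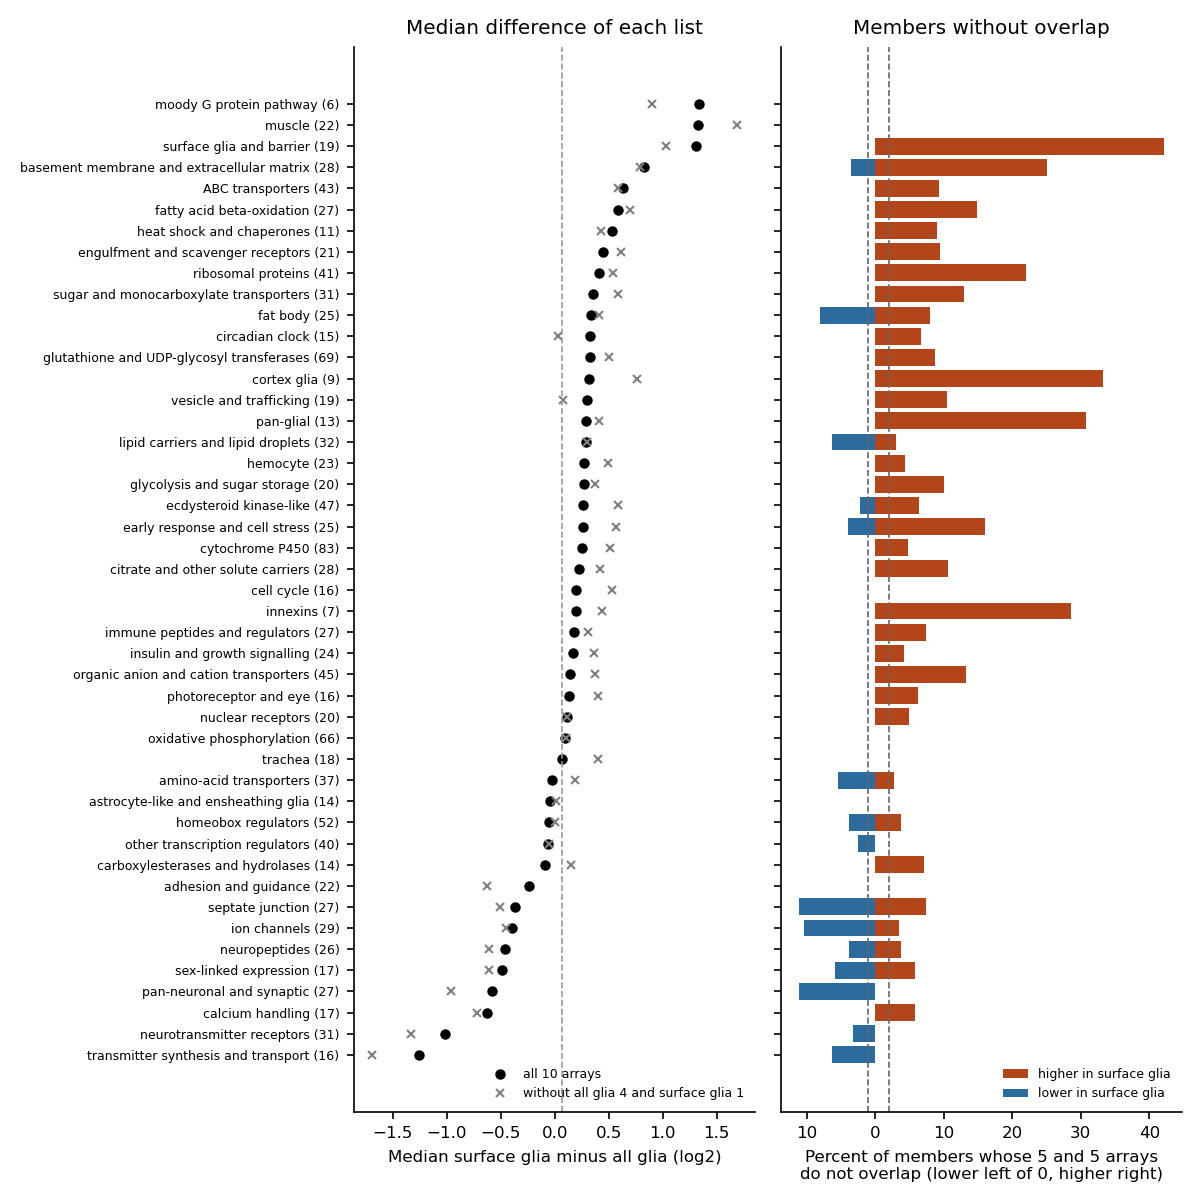
Left, the median surface glia minus all glia difference (x axis, log2) of each of the 46 gene lists (y axis, number of measured genes in brackets), with all 10 arrays (points) and without all glia 4 and surface glia 1 (crosses). Right, the percent of list members whose arrays do not overlap, lower left of 0 and higher right. Dashed lines give the same over all genes (0.07, and 0.96% and 2.01%), and the surface glia and barrier list reaches 42.1%. The lists were written with earlier results of these data known.

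Of 28 basement membrane and extracellular matrix genes, 0 were called, 7 were higher (25%) and 1 was lower without overlap, with a median of 0.83. The 7 were the integrin genes if and scb, the perlecan gene trol, the collagen hydroxylase gene Plod, Timp, Col4a1 and SPARC. scb was within the negative controls in all glia (adjusted p = 0.299). It had 4.63, 5.15, 9.63, 5.96 and 4.61 in surface glia, above the controls on 2 of 5 arrays. Plod had 8.69, 10.19, 10.50, 9.69 and 9.25 in surface glia, against 7.44, 6.33, 8.18, 6.07 and 8.25 in all glia (difference 2.41, SE 0.52, adjusted p = 0.0956). trol had 12.40 to 13.29 in surface glia, against 12.31, 10.63, 10.65, 6.22 and 10.64 in all glia, and its difference of 2.87 was 1.89 without all glia 4 and surface glia 1. The 1 lower gene was mspo (−1.43, adjusted p = 0.158), with 7.31 to 8.69 in surface glia and 8.95 to 10.05 in all glia. Of 27 septate junction genes, 0 were called higher and 1 lower (sinu). Nrg (2.43) and the polarity gene l(2)gl lay higher without overlap, and the claudin gene kune (−1.19, with 3 of 5 surface glia arrays above the controls) and udt (−1.40) lay lower. l(2)gl was within the negative controls in all glia, with 4.97 to 6.76 in surface glia and 2.15 to 4.45 in all glia (adjusted p = 0.0752). The list median was −0.37, opposite in sign to that of the barrier list.

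Transporter lists held 2 calls, both higher in surface glia. Of 45 organic anion and cation transporter genes 1 was called (Orct) and 6 lay higher without overlap (13.3%), and of 37 amino-acid transporter genes 1 was called (blot), 1 lay higher and 2 lower without overlap. Of 43 ABC transporter genes, 31 sugar and monocarboxylate transporter genes and 28 citrate and other solute carrier genes, 0 were called, and 4, 4 and 3 lay higher without overlap. Among these, CG7882 of the sugar list was within the negative controls in both groups. The ABC transporter genes Mrp4 and Sur were within them in all glia. The cation chloride cotransporter gene NKCC had 12.50, 12.31, 13.33, 12.13 and 12.61 in surface glia, against 10.98, 11.02, 10.54, 8.93 and 10.00 in all glia (difference 2.28, SE 0.42, adjusted p = 0.0726). The ecdysteroid importer gene Oatp74D had 9.21 to 12.33 in surface glia and 6.20 to 9.20 in all glia, a gap narrower than 0.1. The glycine transporter gene GlyT (−1.26) and CG10804 (−2.31) were the 2 lower amino-acid carriers.

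Detoxification lists held 1 call each or 0. Of 69 glutathione and UDP-glycosyl transferase genes 1 was called (GstE7) and 6 lay higher without overlap (8.70%), and GstE12 had 9.87, 9.88, 9.93, 10.47 and 10.72 in surface glia, against 8.38, 8.80, 8.42, 7.38 and 8.56 in all glia (difference 1.87, SE 0.33, adjusted p = 0.0576). Of 83 cytochrome P450 genes 0 were called and 4 lay higher without overlap (4.82%), among them Cyp9f2 at 1.94 (adjusted p = 0.0784) and Cyp4g15 at 1.79 (adjusted p = 0.0823). Of 47 ecdysteroid kinase-like genes 1 was called (CG31288), 3 lay higher and 1, CG13658, lay lower without overlap. Among 27 genes of fatty acid beta-oxidation 1 was called (wal) and 4 lay higher without overlap (14.8%), with a median of 0.59. The acyl-CoA dehydrogenase gene Acadvl had 10.32, 10.90, 11.78, 11.69 and 10.52 in surface glia, against 9.37, 6.19, 7.72, 5.07 and 6.71 in all glia (difference 4.03, SE 0.70, adjusted p = 0.0576). The carnitine palmitoyltransferase gene whd had 9.61 to 11.59 in surface glia and 6.29 to 9.01 in all glia (1.97, adjusted p = 0.215). Of 66 oxidative phosphorylation genes 0 were called and 0 lay without overlap, with a median of 0.09. Of 41 ribosomal protein genes 0 were called and 9 lay higher without overlap (22.0%), with a median of 0.41.

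Among 13 pan-glial genes 1 was called (repo) and 4 lay higher without overlap, namely repo, Gp150 and the gap junction genes ogre and Inx2, and the list median was 0.29. The pan-glial marker bnb had 11.61 to 12.61 in surface glia and 12.28 to 13.28 in all glia, and nrv2 had 11.20 to 11.97 in surface glia and 10.98 to 11.41 in all glia, both with overlap. ogre had 11.75, 11.55, 12.00, 12.64 and 11.12 in surface glia, against 9.88, 8.40, 10.68, 10.01 and 9.02 in all glia (difference 2.21, SE 0.45, adjusted p = 0.0847). Of 9 cortex glia genes 0 were called and 3 (hoe1, Cyp4g15 and SPARC) lay higher without overlap. The cortex glia marker zyd had 5.32 to 6.86 in surface glia and 6.53 to 9.38 in all glia (−1.44, adjusted p = 0.421). The cortex glia marker wrapper had 4.21 to 8.94 in surface glia and 4.29 to 7.88 in all glia, with overlap. Of 14 astrocyte-like and ensheathing glia genes 0 were called and 0 lay without overlap. Of 52 homeobox regulators repo was called higher and Ptx1 lower, and CG32532 lay lower without overlap with 4.99 to 5.96 in surface glia and 6.66 to 11.44 in all glia (−3.43, adjusted p = 0.0903, with 3 of 5 surface glia arrays above the controls).

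Neuronal lists had negative medians and 0 calls. Of 27 pan-neuronal genes 26 had a negative difference and 3 (nSyb, para and pros) lay lower without overlap, with a median of −0.58. Of 31 neurotransmitter receptor genes 25 were negative and 1, mGluR, lay lower without overlap, with a median of −1.02. mGluR had 9.82, 9.56, 7.09, 9.03 and 7.61 in surface glia, against 10.75, 10.92, 10.75, 10.34 and 10.01 in all glia (difference −1.93, SE 0.52, adjusted p = 0.18). The vesicular glutamate transporter gene VGlut had 5.27, 4.94, 4.66, 5.11 and 4.21 in surface glia, against 7.30, 5.46, 7.77, 6.19 and 7.59 in all glia (−2.02, adjusted p = 0.114, with 2 of 5 surface glia arrays above the controls), and the 16 genes of transmitter synthesis and transport had a median of −1.26. Surface glia 1 and surface glia 2 held the receptor genes at a mean of 9.65 and 9.36, and the other 3 surface glia arrays at 7.57 to 8.34, against 8.95 to 9.98 in all glia. Without all glia 4 and surface glia 1 the medians of the pan-neuronal and receptor lists were −0.96 and −1.33.

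Markers of tissues near the brain surface were uneven. Of 25 fat body genes 1 was called (Yp1), and 2 lay higher (Yp1 and santa-maria) and 2 lower without overlap. Yp2 had 10.91, 11.70, 12.90, 12.66 and 10.25 in surface glia, against 6.84, 9.14, 10.58, 8.84 and 9.20 in all glia (2.76, adjusted p = 0.151), while the fat body marker Fbp1 was within the negative controls in both sorts. The fatty acid synthase gene FASN1 (−1.85) and Apoltp (−1.73, with 2 of 5 surface glia arrays above the controls) lay lower without overlap. Of 23 hemocyte genes 0 were called and 1 (Col4a1) lay higher without overlap. The hemocyte markers NimC1 and Hml had 7.05 to 8.10 and 5.66 to 6.89 in surface glia, against 5.73 to 8.27 and 5.20 to 8.25 in all glia. The mean level of the fat body list per array was 6.89 to 7.39 in surface glia and 6.44 to 7.26 in all glia, and that of the hemocyte list 6.67 to 7.11 in surface glia and 6.41 to 6.80 in all glia. Of 22 muscle genes 0 were called and 21 had a positive difference, with a median of 1.33 that was 0.40 without surface glia 3. Surface glia 3 had a mean level of 9.85 over the muscle genes, with Mlc1 at 11.25, against 5.68 to 6.47 on the other surface glia arrays and 5.18 to 5.79 on the all glia arrays. The part of fat body, hemocyte or muscle RNA in the called rises was not tested.

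**Figure D5:**
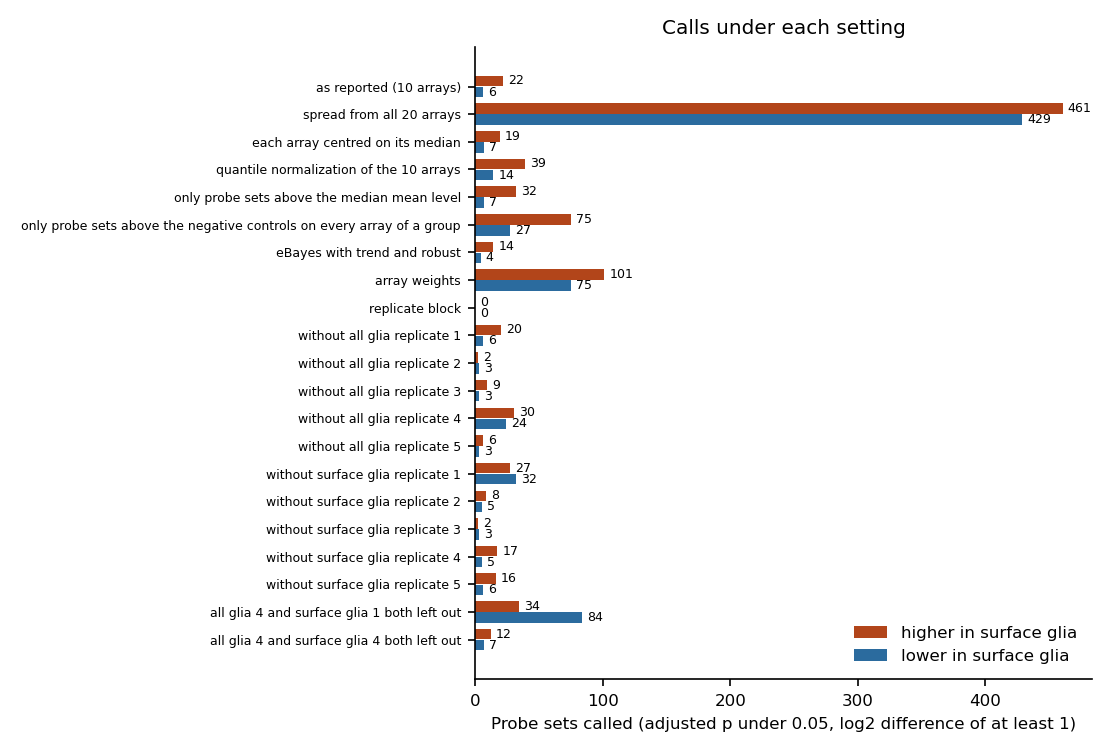
Number of probe sets called (x axis) higher (upper bars) and lower (lower bars) in surface glia under each setting of the fit (y axis). The counts of 22 and 6 with all 10 arrays become 34 and 84 without all glia 4 and surface glia 1, and 461 and 429 where the spread is taken from all 20 arrays. Neurons and whole brain, which enter that last spread, varied less between arrays than surface glia and all glia.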

How the data were processed

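Per the submitters' processing notes, the authors used RMA, affy and limma. Versions and parameters are not given in the sources used here, and no scanner files were used. Total RNA had been amplified before hybridization, as the labels' protocols state. The authors deposited log2 values of 18952 probe sets, normalized across arrays. The 183 control probe sets were left out, which left 18769. By GEO's platform annotation 13647 probe sets carried 1 symbol, 402 carried several and 4720 were unnamed, giving 11982 genes.

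The comparison used lmFit and eBayes of limma 3.58.1 (R 4.3.3), with 1 mean per group over the 10 arrays and Benjamini-Hochberg adjustment. The fit was also run on simulated arrays with known differences, drawn with independent noise of equal spread on every array. That run held no outlying array such as all glia 4, so it cannot show how the fit treats one. Array measures were compared with exact permutation tests over 252 splits. Precision is limited by the 5 arrays per group. Genes named were the up to 15 largest called rises and falls whose arrays did not overlap, filled up with non-overlapping genes of smallest p, cell type markers, and from each of the 46 lists up to 5 called members or, where none was called, 2 of smallest p. The other called probe sets, all list members without overlap, and CG7800, Acadvl, Yp2, Hr38, Dop2R, AdamTS-A, Arc2 and Vha100-1 were chosen after their values were seen. The comparison, markers and lists were chosen with earlier results of these data known. Alternatives changed the spread, scaling, filters, array weights, replicate block, probe set choice and arrays included.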

Additional observations from a re-analysis of the deposited data

Results flagged for a closer look

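Of 182 groups of 5 arrays examined, 18 held an array whose distance from the nearest other array was a large part of the group's range. Chance alone gives such an array in about 5% of groups. All glia 4 stood apart in its array median of 6.10, in its mean correlation within the group of 0.772, and in Arc1 (6.31, low), up (5.96, high) and verm (7.29, high). Surface glia 3 was high for the muscle genes Mlc1 (11.25) and up (10.98) and low for heca (9.00). Surface glia 1 was high for Lsp2 (7.76), CG7326 (7.90) and CCHa2 (7.05). Surface glia 4 was high for eater (9.27) and e (7.00), and surface glia 5 for serp (5.89) and alrm (6.92). All glia 5 was high for alrm (9.70) and low for RhoGAP93B (10.71), and all glia 3 was low for e (4.01).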

How the results depend on the processing

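Against 22 probe sets called higher and 6 lower, the counts were 461 and 429 with the spread taken from all 20 arrays, 39 and 14 after quantile normalization, 75 and 27 among probe sets above the negative controls on every array of a group, and 101 and 75 with array weights. With a trended, robust spread 14 were called higher and 4 lower. The counts were 34 and 84 without all glia 4 and surface glia 1, and 12 and 7 without all glia 4 and surface glia 4, an alternative chosen after seeing the data. Leaving out 1 array gave 2 to 30 higher and 3 to 32 lower. Median centring gave 19 and 7, a filter at the median level 32 and 7, and no minimum difference 22 and 6. The fit to all 20 arrays took its spread also from neurons and whole brain, where the median SD of a probe set was 0.27 and 0.15. In surface glia and all glia it was 0.58 and 0.59, so the calls of that fit rest on a spread narrower than these 2 sorts show. The cause of the other changes was not tested, except that the filters and the omitted arrays change the number of probe sets or arrays in the fit. The replicate numbers were not shown to pair the arrays: same-numbered arrays correlated in their deviations at 0.195, 0.0857, 0.0135, 0.378 and 0.0404, and surface glia 1 correlated best with all glia 3. With the replicate number as a block limma called 0 higher and 0 lower, with 2294 at an unadjusted p under 0.05. List medians moved past the spread between arrays mainly under the filters. Over all measured members the medians were 0.29 for pan-glial genes, −0.46 for neuropeptides, 0.20 for innexins, 0.14 for organic anion and cation transporters, 0.25 for cytochrome P450, 0.33 for transferases, 0.26 for ecdysteroid kinase-like genes, −0.09 for carboxylesterases, 0.18 for immune genes, 0.34 for fat body, 0.27 for hemocyte, −0.05 for homeobox, 0.20 for cell cycle and 0.45 for engulfment genes. Among probe sets above the median level they were 1.34 for pan-glial genes, −1.93 for neuropeptides, 1.59 for innexins, 1.45 for organic anion and cation transporters, 0.64 for cytochrome P450, 0.97 for transferases, 1.94 for ecdysteroid kinase-like genes, 0.47 for carboxylesterases, 0.52 for immune genes, 0.78 for fat body, 0.69 for hemocyte and −0.31 for homeobox genes. The filter on the controls passes a member through the group where it is high, so its medians support nothing. Among those above the controls they were 1.09 for pan-glial genes, 1.59 for innexins, 0.81 for organic anion and cation transporters, 0.64 for cytochrome P450, 0.95 for transferases, 0.73 for ecdysteroid kinase-like genes, 0.47 for carboxylesterases, 0.78 for fat body, 0.66 for hemocyte, 0.54 for cell cycle and 0.81 for engulfment genes. Leaving out 1 array gave 0.37 to 0.85 for engulfment genes. Of the probe sets examined singly, 148 with a difference of at least 1 or a call had 0 sign changes in the settings run, and 16 of the 58 with a smaller difference changed sign, in 45 instances. Leaving out arrays cannot change the sign where the groups do not overlap, so the 0 sign changes were partly fixed in advance. No size of difference is printed for those 58. A probe set within the negative controls on every array of a group has only a bound.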

Other observations

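Several gene groups lay outside the comparisons above. The nuclear receptor gene Hnf4 had 9.65, 10.66, 11.17, 10.34 and 11.35 in surface glia, against 9.45, 6.42, 6.34, 5.17 and 9.62 in all glia, without overlap (difference 3.23, adjusted p = 0.16). Of 20 nuclear receptor genes 0 were called. ImpL2, which encodes a secreted protein that binds insulin-like peptides, had 11.78, 11.91, 11.90, 11.32 and 9.79 in surface glia, against 9.21, 8.08, 9.36, 9.33 and 8.37 in all glia (2.47, adjusted p = 0.0726). The ion transport peptide gene ITP had 11.44 to 12.25 in surface glia and 9.09 to 11.05 in all glia (1.97, adjusted p = 0.0784), and was the 1 of 26 neuropeptide genes higher without overlap. The immune regulator genes nec and pirk lay higher without overlap at 2.12 and 2.36 (adjusted p of 0.0903 and 0.30). CG7800 had 8.17 to 10.51 in surface glia and 3.79 to 6.98 in all glia (4.23, adjusted p = 0.0576, with 2 of 5 all glia arrays above the controls).

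AdamTS-A depended on the probe set read. The representative one had 6.33 to 9.02 in surface glia and 5.48 to 6.73 in all glia (1.38, adjusted p = 0.429), and another had a difference of 4.46 (SE 0.80, adjusted p = 0.0609). Of 25 early response and cell stress genes 0 were called at their representative probe sets, a count that leaves out the called Arc1 probe set. Arc1, cbt, dnr1 and crc lay higher without overlap and the kinase gene wnd lay lower (−3.40, adjusted p = 0.205). The early response gene Hr38 had 11.35, 11.95, 10.58, 10.36 and 8.50 in surface glia, against 7.95, 7.38, 9.86, 7.85 and 8.98 in all glia, with overlap. The heat shock genes Hsp26 and Hsp27 had 11.46 to 12.11 and 11.33 to 12.59 in surface glia, against 9.83 to 11.58 and 10.79 to 11.76 in all glia.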
